A study of Mus musculus with 6 samples.

Results

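Cathepsins are the proteases of the lysosome and of the endosomes that lead to it. The 10 genes described here, Ctsa, Ctsb, Ctsc, Ctsd, Ctse, Ctsh, Ctsk, Ctsl, Ctss and Ctsz, were taken from a fixed list of gene symbols and read through every probe set that the array annotation maps to 1 of these symbols alone. That gave 22 probe sets of 45101, for 10 of 18194 genes named by a single symbol, and the rule itself uses no measured value. Ctsb had 5 probe sets, Ctsc and Ctsz 3 each, Ctsa, Ctse, Ctsh and Ctsl 2 each, and Ctsd, Ctsk and Ctss 1 each.

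The enzymes fall into catalytic classes. Ctsd and Ctse encode aspartic proteases, Ctsa a serine carboxypeptidase, and the others cysteine proteases of the papain family. Papain-type cathepsins are held in check by cystatins and stefins. The enzymes are made as inactive precursors, carried to the lysosome mostly on mannose 6-phosphate receptors, and switched on by cleavage at acid pH. Besides bulk protein turnover, they trim antigens for MHC class II, activate granule proteases of leukocytes and, when released, degrade extracellular matrix, and macrophages are a rich source of them in both gut and liver.

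Colon and liver came from male C57BL6/J mice obtained at 7 weeks of age, in 3 groups of 7. The CON group received basal diet and drinking water without additives. The DSS group received basal diet with 7 days of plain water, then 1.5% (w/v) dextran sodium sulphate, a sulphated sugar polymer toxic to the lining of the colon and used to induce colitis. In the DSSPAR group the food contained 2% parsley, and 1.5% dextran sodium sulphate likewise followed 7 days of plain water. Exposure is given as 10 days (DSS) and 9 days (DSSPAR) in the treatment protocols, whereas the growth protocol mentions 9 days only, so a difference between DSSPAR and DSS cannot be told apart from 1 day of exposure. RNA of the 7 mice was pooled before hybridisation to Affymetrix mouse whole-genome arrays, 1 array per group and tissue and 6 in all. Each difference therefore compares a pair of pools. It has no replicate check, is given without a p-value, and is limited in precision by how few arrays there are.

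Values are MAS5 intensities, a brightness per probe set on a linear scale with arbitrary units. The trimmed mean of an array was 106.2 to 111.0 in colon and 500.0 in liver, so no level was compared across tissues. Levels were not compared between genes either, since their probes differ in brightness. A floor was set at the median of a tissue's 3 arrays, 25.1 in colon and 96.6 in liver, and lower values were raised to it. Where a gene has several probe sets, the brightest stands for it and the others are given beside it. The only measure of error is how far probe sets of the same gene disagree: between pairs of bright probe sets the log2 ratios differed with a robust SD of 0.27 to 0.32 in colon (n = 1915 pairs) and 0.33 to 0.40 in liver (n = 1978 pairs). This leaves out differences between mice, pools and arrays. All 9 colon epithelium markers were above the floor in every colon array and all 7 hepatocyte markers in every liver array. In the other tissue, 5 to 6 of these 9 and 3 to 4 of these 7 were above its floor too. This is therefore a weak check of the tissue labels.

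RefSeq start-site sequences (build GRCm38.p6) were found for 7 of the 10 genes, Ctsa (2 entries), Ctsc, Ctsd, Ctsk, Ctsl, Ctss and Ctsz, and not for Ctsb, Ctse and Ctsh. The windows of Ctsc, Ctsk and Ctsz are shown because these genes were at least 2-fold higher in inflamed colon. Those of Ctsa and Ctsd are shown because they alone among the 7 held the core of the CLEAR element, the site bound by TFEB and related lysosomal regulators. Each runs from 250 bases before to 30 after the start site, 5′ to 3′ on the gene's strand, and capitals mark the motif matches described after them. The windows are chr7:88277835-88278114 (plus strand) for Ctsc, chr3:95498960-95499239 (plus) for Ctsk, chr2:174439010-174439289 (minus) for Ctsz, chr2:164833523-164833802 (plus) for Ctsa and chr7:142387798-142388077 (minus) for Ctsd.
Ctsc: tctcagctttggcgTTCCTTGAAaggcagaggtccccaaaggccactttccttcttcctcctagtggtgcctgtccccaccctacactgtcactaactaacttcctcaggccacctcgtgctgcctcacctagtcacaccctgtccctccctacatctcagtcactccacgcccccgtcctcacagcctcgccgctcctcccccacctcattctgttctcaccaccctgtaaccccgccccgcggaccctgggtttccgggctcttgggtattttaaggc
Ctsk: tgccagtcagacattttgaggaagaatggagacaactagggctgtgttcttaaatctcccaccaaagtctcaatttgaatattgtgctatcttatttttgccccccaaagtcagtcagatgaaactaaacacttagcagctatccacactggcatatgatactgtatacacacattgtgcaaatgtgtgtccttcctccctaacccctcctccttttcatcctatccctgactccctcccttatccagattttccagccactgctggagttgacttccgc
Ctsz: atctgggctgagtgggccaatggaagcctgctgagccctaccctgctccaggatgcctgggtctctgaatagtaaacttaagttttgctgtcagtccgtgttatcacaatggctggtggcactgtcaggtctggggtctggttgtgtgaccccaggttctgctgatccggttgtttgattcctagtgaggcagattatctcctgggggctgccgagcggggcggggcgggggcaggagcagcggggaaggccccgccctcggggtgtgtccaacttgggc
Ctsa: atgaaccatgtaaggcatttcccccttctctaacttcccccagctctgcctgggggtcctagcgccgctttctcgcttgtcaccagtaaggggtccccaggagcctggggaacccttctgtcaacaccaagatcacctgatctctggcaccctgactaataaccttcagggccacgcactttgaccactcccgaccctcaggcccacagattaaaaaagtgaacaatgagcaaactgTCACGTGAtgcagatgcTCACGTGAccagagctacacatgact
Ctsd: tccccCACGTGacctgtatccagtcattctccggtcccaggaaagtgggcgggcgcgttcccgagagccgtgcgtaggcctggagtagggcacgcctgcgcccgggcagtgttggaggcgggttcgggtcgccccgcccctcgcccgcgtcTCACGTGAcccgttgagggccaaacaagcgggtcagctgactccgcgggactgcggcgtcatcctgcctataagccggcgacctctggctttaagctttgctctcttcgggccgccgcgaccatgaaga

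Motifs were searched on both strands of the full 300 bases. The CLEAR core TCACGTGA, which contains the E-box CACGTG, began at positions -13 and 5 from the start site in Ctsa (its other start-site entry held none) and at -99 in Ctsd. Ctsd held a further E-box at -245 and Ctsl 1 at -236. Over all 32851 promoters of this length, 0.974% held the CLEAR core and 7.15% the E-box. The STAT motif TTCNNNGAA was in Ctsc, at -236, and in 8.30% of all promoters. Ctsk, Ctss and Ctsz held none of the 3 letter strings. Ctsk and Ctss are next to each other among the protein-coding genes of chromosome 3.

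**Figure D1:**
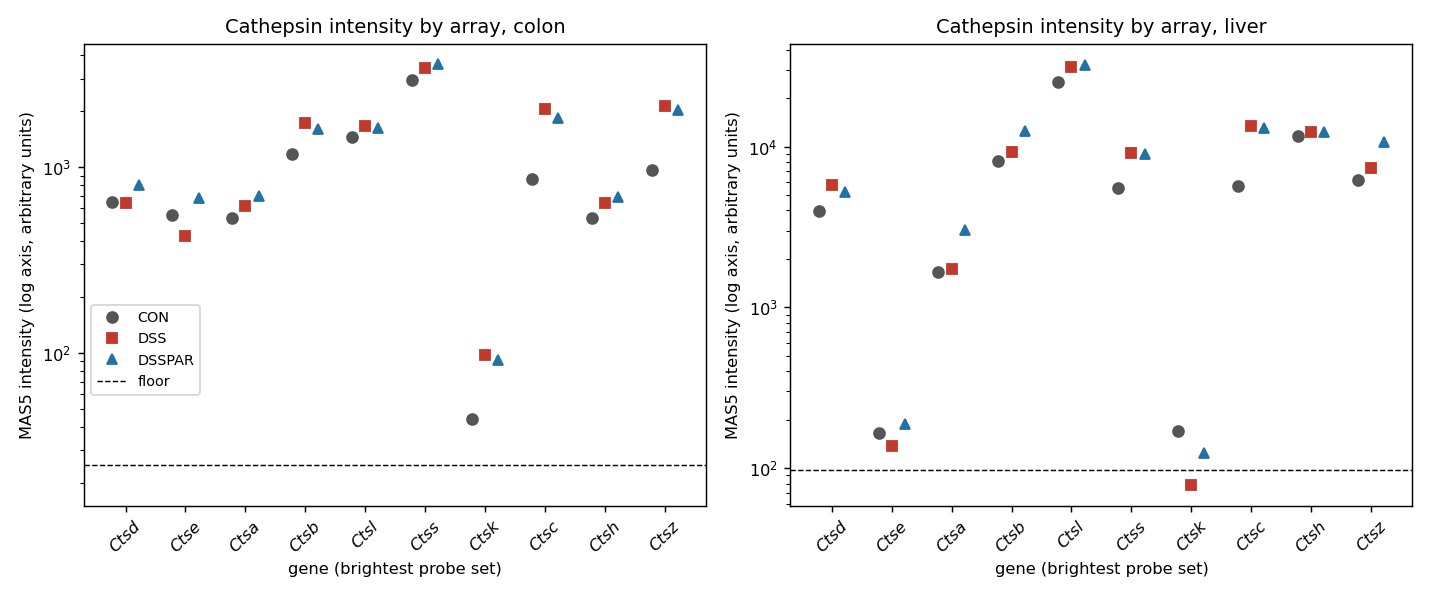
MAS5 intensity (log axis, arbitrary units) of the brightest probe set of each cathepsin in the CON, DSS and DSSPAR arrays of colon (left) and liver (right), 1 array per point, with the floor as a dashed line. In colon the DSS and DSSPAR points of Ctsk, Ctsc and Ctsz lie together above CON, and in liver those of Ctsc do; heights are not comparable between genes or tissues.

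Cathepsins in the inflamed colon were read from DSS against CON. Ctsc, Ctsk and Ctsz were at least 2-fold higher, and no cathepsin was 2-fold lower. Among all 11952 genes measured in this pair, 5.18% were at least 2-fold higher and 1.97% lower. The median log2 ratio of the 10 cathepsins was 0.24, against 0.042 for all genes measured, and 8 of the 10 lay above CON (9 with arrays centred on their medians or with probe sets averaged). That centring moved the median over all genes to 0.12.

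Ctsc encodes dipeptidyl peptidase I, which activates the serine proteases of neutrophil, mast cell and lymphocyte granules. Its intensity was 859 in CON, 2046 in DSS and 1846 in DSSPAR, so CON was low and the colitis arrays were high and close to each other. DSS was 2.38-fold above CON (log2 ratio 1.25), a ratio higher than that of 97.0% of genes measured, and DSSPAR 2.15-fold (1.10). The other probe sets of Ctsc were much dimmer. One read 42.7, 78.0 and 45.6 in CON, DSS and DSSPAR, a log2 ratio to CON of 0.87 in DSS but 0.10 in DSSPAR, so the probe sets differ on how much of the increase was present in DSSPAR. The third read 15.6, 30.5 and 22.4, under the floor in 2 of 3 arrays.

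Ctsz, also called cathepsin X, encodes a carboxypeptidase that is abundant in myeloid cells. It read 972 in CON, 2145 in DSS and 2021 in DSSPAR. DSS was 2.21-fold and DSSPAR 2.08-fold above CON, with log2 ratios of 1.14 and 1.06. All 3 of its probe sets lay above CON, by 0.78 to 1.14 in DSS and by 0.81 to 1.06 in DSSPAR on the log2 scale. They carry identifiers of the shared type, which may also match other transcripts.

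Ctsk encodes cathepsin K, a collagen-degrading enzyme best known from osteoclasts and also made by fibroblasts. Its single probe set read 44.1 in CON, 97.8 in DSS and 91.2 in DSSPAR. The colitis arrays were again high and near each other, 2.21-fold (log2 ratio 1.15) and 2.06-fold (1.05) above CON. These are dim readings, above the floor of 25.1 but under the 75th percentile of colon intensities, and with the floor raised to that percentile Ctsk was not measured.

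Ctss, the neighbour of Ctsk, encodes cathepsin S, which cuts the invariant chain during MHC class II loading. Its probe set read 2961 in CON, 3427 in DSS and 3595 in DSSPAR. The log2 ratio of DSS to CON was 0.21, less than the SD of 0.32 between probe sets of a gene in this comparison. Cathepsin L, an endopeptidase of most lysosomes encoded by Ctsl, read 1459, 1658 and 1634 in the same order. Its ratio of DSS to CON was 0.18, again within that SD.

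Ctsb encodes cathepsin B, an endopeptidase that also clips dipeptides from C-termini. It read 1175 in CON, 1730 in DSS and 1613 in DSSPAR, a 1.47-fold difference between DSS and CON. Of its 5 probe sets, 4 lay above CON in DSS, with log2 ratios of 0.56 to 0.79, and the dimmest lay below at -0.30. These 4 exceed the SD between probe sets but stay short of 2-fold. In DSSPAR the brightest probe set stayed at 0.46 above CON while another of the bright ones, at 322 in CON, 558 in DSS and 338 in DSSPAR, was at 0.07.

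Ctsh, whose product is an aminopeptidase, read 536 in CON, 643 in DSS and 693 in DSSPAR. Its 2 probe sets gave log2 ratios of DSS to CON of 0.26 and -0.11. Ctsa, the carboxypeptidase that stabilises lysosomal sialidase and beta-galactosidase in a complex, read 532, 619 and 700.2, a log2 ratio of 0.22 for DSS against CON. Neither difference exceeds the SD of 0.32.

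Of the aspartic proteases, Ctsd, the main one of lysosomes, read 651 in CON, 639.7 in DSS and 797 in DSSPAR. CON and DSS were nearly equal, with a log2 ratio of -0.026, whose sign turned when arrays were centred on their medians. Ctse, an endosomal enzyme of epithelial and immune cells, read 556 in CON, 424 in DSS and 686 in DSSPAR, so DSS was the low array, 1.31-fold under CON. Its other probe set, at 39.3, 71.6 and 37.7, had DSS as the high array, and the direction of Ctse in colon is therefore not settled.

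**Figure D2:**
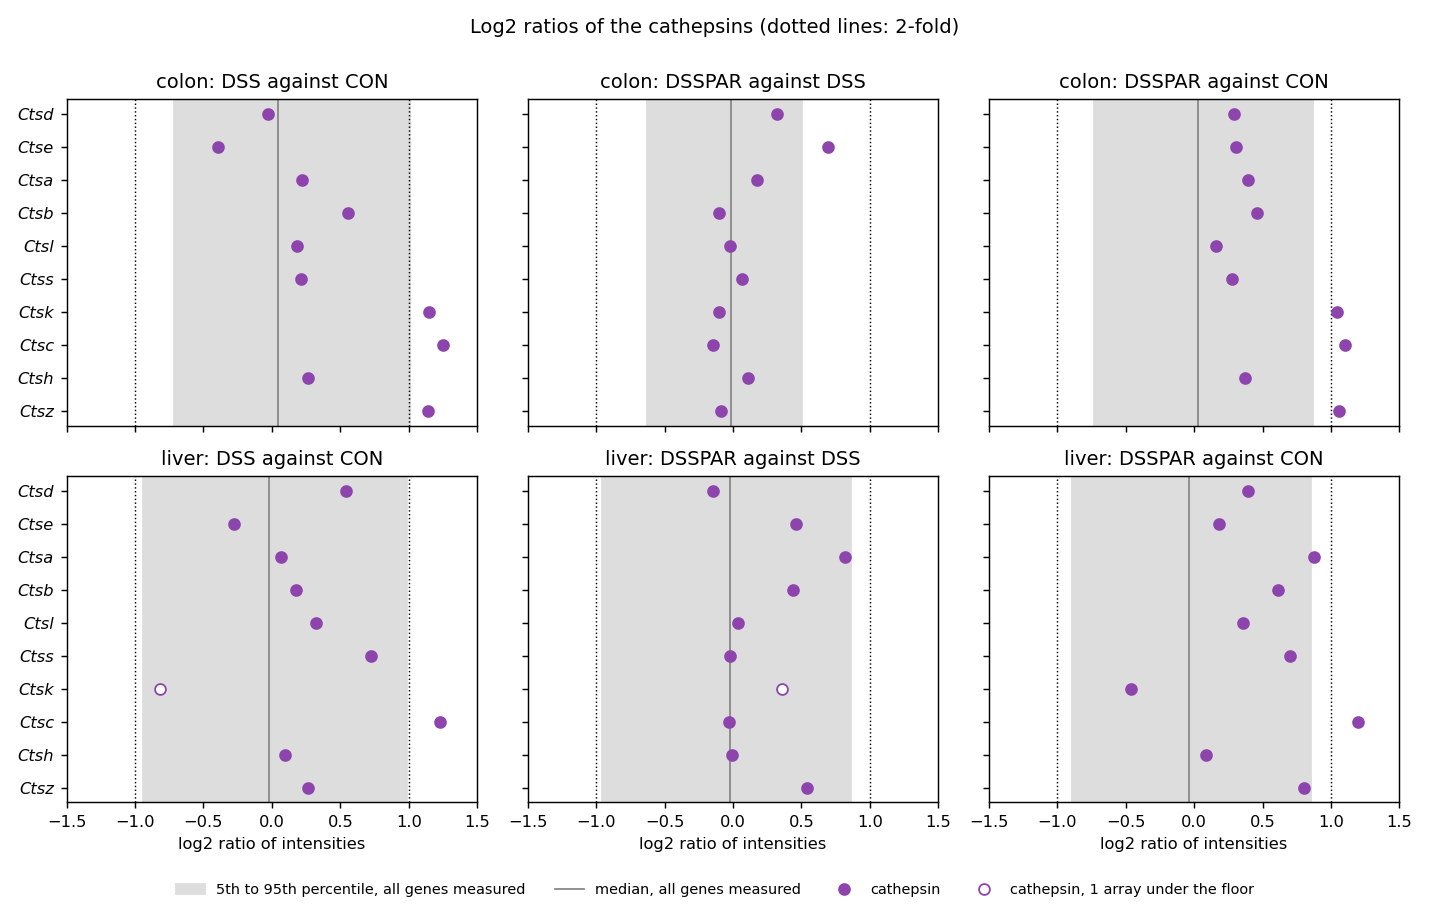
Log2 ratios of the 10 cathepsins in the 6 comparisons (rows: colon and liver; columns: DSS against CON, DSSPAR against DSS, DSSPAR against CON), with the median and the 5th to 95th percentile of all genes measured, and 2-fold as dotted lines. Ctsk, Ctsc and Ctsz pass 2-fold against CON in colon and Ctsc does in liver, no cathepsin does between DSSPAR and DSS, and open circles are ratios with 1 array under the floor.

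Marker lists of other cell types were read beside these genes in colon. Over all genes measured there, 5.18% were at least 2-fold higher in DSS than in CON and 3.51% in DSSPAR. Of 12 macrophage and monocyte markers measured, 10 were at least 2-fold higher in DSS than in CON and none lower, and their summed intensity was 1573 in CON, 5172 in DSS and 5092 in DSSPAR. Of 8 fibroblast markers 2 were at least 2-fold higher in DSS and 0 in DSSPAR, with sums of 5712, 10859.5 and 8168. Of 6 neutrophil markers measured 3 were higher, and the list summed to 142, 3234 and 2535, with S100a8 at 18.5, 2057 and 1423 and S100a9 at 9.96, 839 and 923. Mpo, Elane, Camp, Csf3r and Cxcr2 of that list were under the floor in all 3 colon arrays. M cell markers had 3 of 4 and B cell markers 2 of 3 at least 2-fold higher in DSS, whereas T cell markers had 0 of 2 and smooth muscle markers 0 of 5. Of 7 exocrine pancreas markers 6 were higher in DSS (sums 187, 2426 and 181). The colon epithelium markers summed to 38274, 38952 and 40718. In pooled tissue, more cells of a type and more RNA per cell cannot be told apart, and the part of any of these markers in the cathepsin values was not tested.

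**Figure D3:**
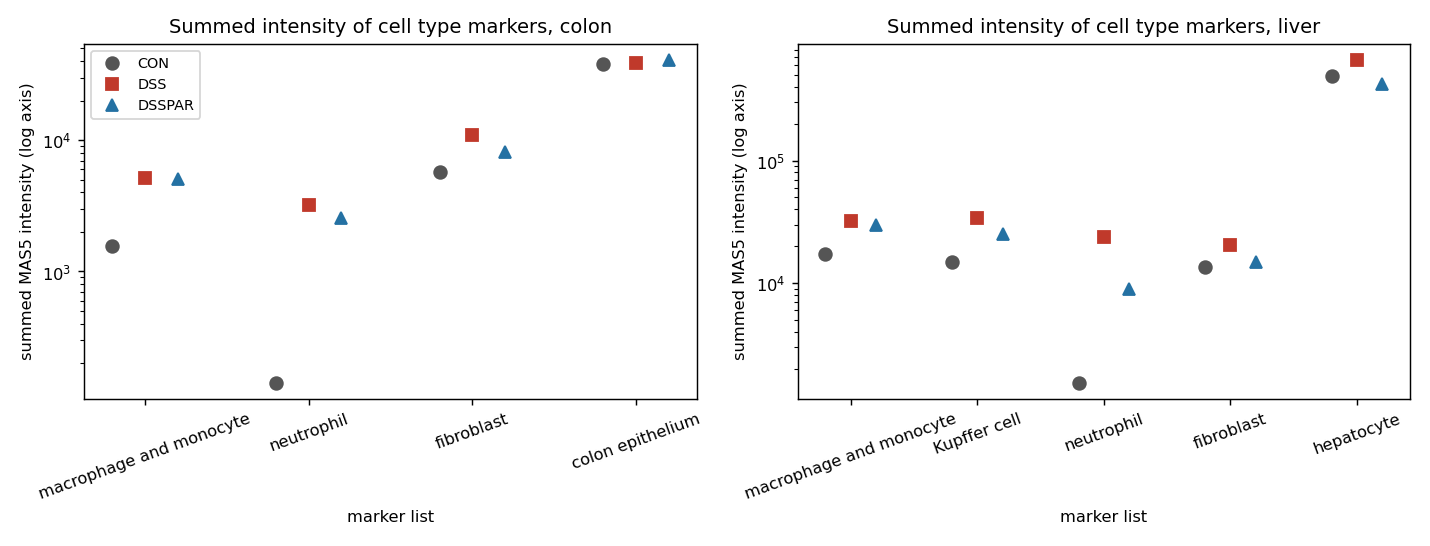
Summed MAS5 intensity (log axis, no floor applied) of all markers of each cell type that are on the array, in the CON, DSS and DSSPAR arrays of colon (left) and liver (right), 1 array per point. Macrophage and monocyte sums are 1573 in CON against 5172 and 5092 in the colitis arrays of colon, and neutrophil sums in liver are 1526, 23927 and 8990.

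DSSPAR against DSS asks, in colon, how colitis with parsley in the food differed from colitis without it. No cathepsin differed 2-fold in either direction, beside 0.392% of 11730 genes higher and 1.24% lower (46 and 146 genes, or 108 and 79 with arrays centred on their medians, 68 and 99 centred on probe sets above the floor and 66 and 92 after quantile normalization). The median log2 ratio was 0.024 over the cathepsins and -0.013 over all genes, and 5 of 10 lay above DSS. This split ran from 3 to 10 of 10 across the scaling and probe set alternatives. The 10 came from centring arrays on their medians, which moved the median over all genes to 0.18 and that of the cathepsins to 0.22. Ctsc (-0.15), Ctsk (-0.10) and Ctsz (-0.086), the genes higher in colitis, were each within the SD of 0.27 between probe sets of a gene.

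Ctse had the largest ratio among the cathepsins in this pair, 1.62-fold above DSS (log2 ratio 0.69), which was higher than 98.3% of genes. Its other probe set ran the opposite way, at -0.92. Ctsd was 1.25-fold higher (0.32), just past the SD. All 5 Ctsb probe sets lay below DSS, between -0.10 and -0.72, and the brightest of them had the smallest difference.

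Against CON, the DSSPAR colon had the same 3 genes past 2-fold, Ctsc, Ctsk and Ctsz, and none lower, beside 3.51% of 11808 genes higher and 2.1% lower (415 and 248 genes, or 890 and 121 with arrays centred on their medians). This comparison shares the CON array with the one of DSS against CON, so the values of both rest on that array. The median log2 ratio was 0.38 over the cathepsins and 0.027 over all genes. All 10 lay above CON, though 9 did so after quantile normalization and 8 with probe sets averaged. Ctsb (0.46), Ctsa (0.40) and Ctsh (0.37) followed the 3 leading genes. Those leading ratios lie just over 2-fold: after quantile normalization Ctsc was at 0.86 and Ctsz at 0.82, and with probe sets averaged they were at 0.57 and 0.95, leaving Ctsk alone past 2-fold.

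**Figure D4:**
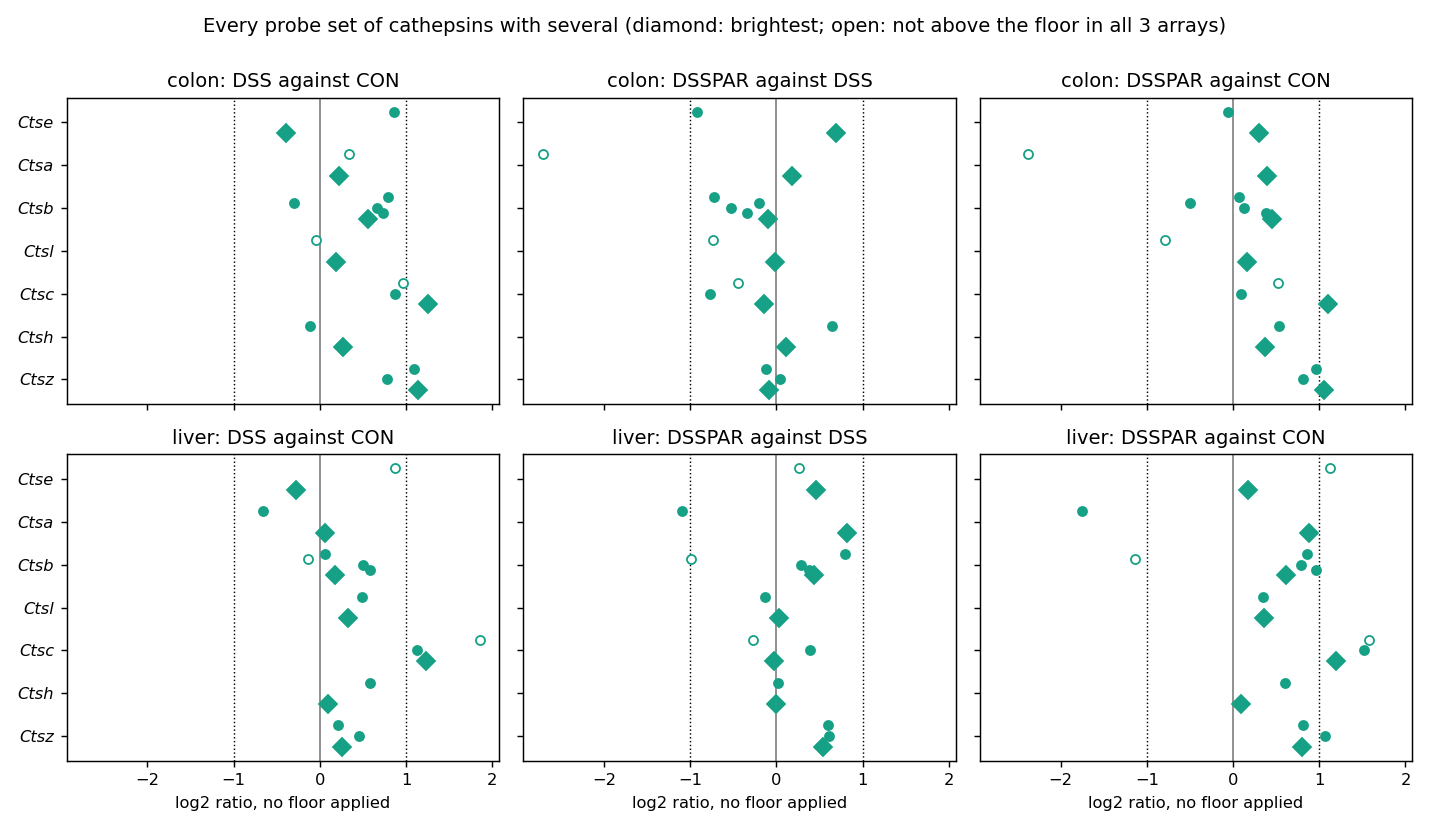
Log2 ratio, with no floor applied, of every probe set of the 7 cathepsins that have several, in the 6 comparisons (rows: colon and liver; columns: DSS against CON, DSSPAR against DSS, DSSPAR against CON). Diamonds mark the brightest probe set and open symbols those not above the floor in all 3 arrays. The probe sets of Ctsz lie close together, whereas those of Ctse and Ctsa lie on opposite sides of 0 in several panels.

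In liver, DSS against CON shows how the organ that receives blood from the gut stood during colitis. Ctsc alone was at least 2-fold higher and no cathepsin was shown 2-fold lower, beside 4.73% of 13034 genes higher and 4.2% lower (616 and 548 genes, or 854 and 349 with arrays centred on their medians). The median log2 ratio was 0.22 over the cathepsins against -0.018 over all genes. With the stated floor, 8 of 10 lay above CON.

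Ctsc read 5719 in CON, 13409 in DSS and 13129 in DSSPAR. The colitis arrays were nearly equal and far from CON, 2.34-fold (log2 ratio 1.23) and 2.30-fold (1.20) above it. All 3 probe sets lay above CON. The 2 dimmer ones were at 1.13 and 1.85 in DSS and at 1.51 and 1.58 in DSSPAR, the second of each pair having CON under the floor.

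Ctss was next, at 5499 in CON, 9071 in DSS and 8947 in DSSPAR. Its log2 ratio of DSS to CON was 0.72, beyond the SD of 0.38 between probe sets and short of 2-fold, and that of DSSPAR to CON was 0.70. Ctsd followed with 3995, 5801 and 5244, a ratio of 0.54 in DSS and 0.39 in DSSPAR. Both genes had CON as the low array and the colitis arrays near each other, and each rests on a single probe set.

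Ctsl read 25157.5 in CON, 31443 in DSS and 32165 in DSSPAR (log2 ratio of DSS to CON 0.32), and its dim probe set gave 0.49. Ctsh read 11592, 12363 and 12309.5, with 0.093 on this probe set and 0.58 on its other one. The brightest Ctsh value hardly moved in any pair of liver arrays, the widest being 0.093.

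Ctsk stood apart. It read 170.3 in CON, 78.3 in DSS and 124 in DSSPAR, with DSS under the floor of 96.6, so DSS was at least 1.76-fold lower than CON. DSSPAR was 1.37-fold below CON (log2 ratio -0.46). Its mean level in liver was above that of 57.3% of probe sets, and with the floor at the 75th percentile Ctsk was not measured there. Ctse was also dim in liver, at 166, 137 and 187, and its brightest and other probe set disagreed in direction for DSS against CON (-0.28 and 0.87), the latter with CON under the floor.

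The comparison of DSSPAR with DSS in liver had no cathepsin past 2-fold, beside 2.8% of 12398 genes higher and 4.23% lower (347 and 525 genes, or 674 and 332 with arrays centred on their medians). The median log2 ratio was 0.20 over the cathepsins and -0.019 over all genes, and 6 of 10 lay above DSS (5 to 10 across the scaling alternatives). The 10 came with arrays centred on their medians, where the median over all genes was 0.13 and that of the cathepsins 0.36. On their brightest probe sets, Ctsa, Ctsb, Ctsz, Ctse and Ctsl were highest in DSSPAR, Ctsl by a log2 ratio to DSS of 0.033 and Ctse at dim readings.

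Ctsa read 1648 in CON, 1723 in DSS and 3032 in DSSPAR, so CON and DSS were alike and DSSPAR alone was high. DSSPAR was 1.76-fold above DSS (log2 ratio 0.82), beyond the SD of 0.40 and higher than 94.0% of genes. Its dimmer probe set ran in the opposite order, 390.2, 247 and 116, a ratio of -1.09 between DSSPAR and DSS. With the probe sets averaged, the ratio of Ctsa was -0.14, so its direction depends on which probe set is read.

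Ctsz read 6146 in CON, 7362 in DSS and 10731 in DSSPAR, with DSSPAR high. All 3 probe sets put DSSPAR above DSS, by 0.54 to 0.61 on the log2 scale. Ctsb read 8146, 9195 and 12455 in the same order, and its 4 probe sets above the floor gave 0.29 to 0.80 for DSSPAR against DSS. The dimmest Ctsb probe set, under the floor in every liver array, gave -0.99.

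By contrast, Ctsc (-0.030), Ctss (-0.020), Ctsh (-0.0063) and Ctsl (0.033) differed by far less than the SD between DSSPAR and DSS in liver. Ctsd was at -0.15, also within it. Whether these genes differ from Ctsa, Ctsb and Ctsz in this comparison was not tested.

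Against CON, the DSSPAR liver had Ctsc past 2-fold and no cathepsin lower, beside 3.26% of 12721 genes higher and 3.45% lower. The CON array is again shared with the comparison of DSS. The median log2 ratio was 0.50 over the cathepsins against -0.040 over all genes, and 9 of 10 lay above CON (8 with probe sets averaged, which put Ctsa at -0.44). After Ctsc came Ctsa at 0.88, Ctsz at 0.80, Ctss at 0.70 and Ctsb at 0.61, all beyond the SD of 0.33. The ratio of the array medians was -0.31 here, and with arrays centred on their medians 4 cathepsins, Ctsa, Ctsc, Ctss and Ctsz, passed 2-fold, while the counts over all genes became 1007 higher and 188 lower in place of 415 and 439.

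Liver markers moved as well. Over all genes measured in liver, 4.73% were at least 2-fold higher in DSS than in CON. Of 11 macrophage and monocyte markers measured, 6 were at least 2-fold higher in DSS than in CON. The 12 on the array summed to 17287 in CON, 32321 in DSS and 30048 in DSSPAR. Of 5 Kupffer cell markers 3 were higher (sums 14988, 34025 and 25267), among them Marco, a scavenger receptor, at 112, 1158 and 966. Neutrophil markers summed to 1526, 23927 and 8990, of which S100a8 and S100a9 made 14341 and 8274 in DSS, while Mpo and Cxcr2 were under the floor in all 3 liver arrays. The neutrophil, Kupffer and macrophage sums were all lower in DSSPAR than in DSS, the last by least. Hepatocyte markers summed to 495058 in CON, 661547 in DSS and 421927 in DSSPAR. The part of all these markers in the cathepsin values was not tested.

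Other genes of the cathepsin system were read from lists. Among other lysosomal peptidases and partners, 2 of 9 were at least 2-fold higher in the DSS colon than in CON and none lower. Lgmn, encoding legumain, which cleaves cathepsins B, H and L, was 2.82-fold higher (174 in CON, 491 in DSS, 344 in DSSPAR), and Napsa, an aspartic protease gene, at least 2.62-fold. The median of this list was -0.0995, with 4 of 9 above CON and 5 below. Of 26 lysosomal hydrolases none was 2-fold higher and 1, the acid nuclease gene Dnase2a, was 2.02-fold lower (median 0.059). No vacuolar ATPase subunit of 15, which acidify the lysosome, and none of 9 genes of mannose 6-phosphate tagging and sorting passed 2-fold in either direction. Over all genes measured in this pair 5.18% were higher and 1.97% lower, so none among 15 or 9 genes is close to those shares.

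Lysosomal membrane proteins had 2 of 14 higher and 2 lower in the DSS colon, beside 5.18% and 1.97% of all genes. The higher ones were the leukocyte genes Cd68, at least 5.99-fold, and Laptm5, 2.48-fold, and the lower ones the transporter genes Ctns, 2.15-fold, and Slc17a5, 2.02-fold. Cd68 is also among the macrophage markers. MHC class II antigen processing genes had 3 of 10 higher and none lower (median 0.88), including H2-DMa, which loads peptides, at 3.10-fold. All 16 measured genes of the MiT factors and lysosomal mTORC1 control stayed within 2-fold (median 0.21).

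Inhibitors of cathepsins were read from a list of their own. Of 7 measured in colon, 3 were at least 2-fold higher in DSS and none lower, with all 7 above CON (median 0.65). Over all genes 5.18% were higher and 1.97% lower. Csta1, a stefin, read 63.4 in CON, 204 in DSS and 222 in DSSPAR, 3.22-fold and 3.50-fold above CON. Ctla2a and Ctla2b, which resemble the propeptide of cathepsin L and inhibit cysteine cathepsins, were 2.26-fold and 2.19-fold higher in DSS. These are dim genes, and with the floor at the 75th percentile 0 inhibitors passed 2-fold in this comparison, beside 3.68% of all genes higher. Some of the stefins, and the Ctla2 pair, are close copies, so probe sets may not separate them.

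In liver the same inhibitor list had 2 of 6 higher in DSS, beside 4.73% of all genes. Ctla2b read 1160 in CON, 4788 in DSS and 1485 in DSSPAR, 4.13-fold above CON in DSS and 3.22-fold lower in DSSPAR than in DSS. Ctla2a read 471, 1375 and 724. Both had DSS as the high array, unlike Ctsc, Ctss and Ctsd, which were as high or nearly as high in DSSPAR.

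Several lysosomal lists had medians above 0 between DSSPAR and DSS in liver. Of 9 other lysosomal peptidases and partners 7 lay above DSS, with Scpep1, a serine carboxypeptidase gene, 2.16-fold higher (2841 in CON, 2676 in DSS, 5790.3 in DSSPAR) and Tpp1, a tripeptidyl peptidase gene, 2.05-fold (2336, 2145 and 4403). The median was 0.67 and ran from 0.47 to 0.83 over the alternatives. Of 25 lysosomal hydrolases 20 lay above DSS, with a median of 0.37 (0.16 to 0.53) and Dnase2a, 2.53-fold lower, alone past 2-fold. Lysosomal membrane proteins lay above DSS in 11 of 14 cases (median 0.28) and the sorting genes in 7 of 9 (median 0.32), none past 2-fold. From DSS to DSSPAR, 2.8% of the whole gene set passed 2-fold upward and 4.23% downward. None among 14 or 9, and 1 downward among 25, are close to those shares. The vacuolar ATPase subunits had 9 of 16 above DSS and a median of 0.017 (-0.032 to 0.18 over the alternatives), with Atp6v0b and Atp6v0e 2.31-fold and 2.48-fold lower. The median over all genes was -0.019, so most of them lay below DSS. With arrays centred on their medians, the median over all genes was 0.13. That setting gave the upper ends 0.83, 0.53 and 0.18, and the vacuolar ATPase median was there close to that of all genes.

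Against CON, the DSSPAR liver had Lgmn 2.77-fold higher (763 in CON, 1329 in DSS, 2116 in DSSPAR), Prcp, a carboxypeptidase gene, 2.30-fold and Scpep1 2.04-fold, among 3 of 9 peptidases and partners higher and none lower. Over all genes 3.26% were higher and 3.45% lower. Atp6v0d2, a vacuolar ATPase subunit known from macrophages and osteoclasts, was 3.23-fold higher (195, 317 and 629.96). Prcp was highest in DSS, at 559 against 138 in CON and 316 in DSSPAR, 4.07-fold above CON. In the DSS liver, Napsa was at least 2.29-fold and Ctns 2.26-fold lower than CON. For that pair, 4.73% of the whole gene set passed 2-fold upward and 4.2% downward.

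**Figure D5:**
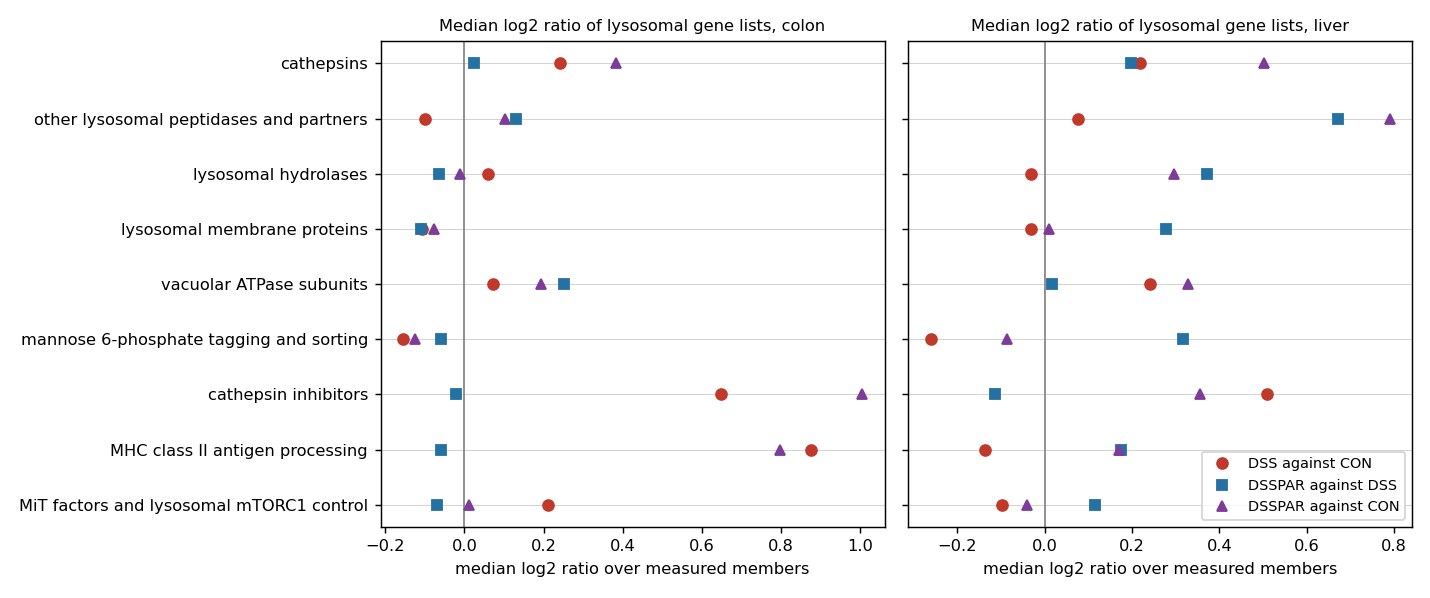
Median log2 ratio over the measured members of the cathepsins and 8 lists of lysosomal genes in colon (left) and liver (right), for DSS against CON (circles), DSSPAR against DSS (squares) and DSSPAR against CON (triangles). In colon the cathepsin inhibitors and MHC class II genes lie farthest above 0 against CON, and in liver the other lysosomal peptidases do between DSSPAR and DSS.

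Cathepsins outside the 10 served as a further view. Of 8 cathepsin genes of the rodent placenta none was above the floor in any array of either tissue. Ctsg, the neutrophil serine protease that Ctsc activates, was under the floor in all colon arrays and read 59.2 in CON, 138 in DSS and 82.3 in DSSPAR in liver, above the floor in DSS only. Ctsw, a lymphocyte cathepsin, read 256, 162 and 98.4 in liver, 2.60-fold lower in DSSPAR than in CON. Neither Ctsf nor Ctso passed 2-fold in any comparison.

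The genes most like Ctsc, Ctsk and Ctsz in colon were sought by the distance between their pairs of log2 ratios to CON, in DSS and DSSPAR, over 3 arrays and 10544 genes above the floor in all of them. For Ctsc they were Slfn2, Fam111a and Kntc1, at distances of 0.027 to 0.047 log2 units. Ctsk and Ctsz had the same nearest genes, Gimap4, Nt5e and Ctla2b, at 0.0074 to 0.033. Nt5e, the ecto-nucleotidase CD73, read 498 in CON, 1093 in DSS and 1045 in DSSPAR. With so few arrays many genes share such a pattern.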

How the data were processed

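RNA pools of 7 mice per group gave 1 array per group and tissue. The authors deposited a linear intensity for every probe set of every array. MAS5 is named in the submitters' processing notes, and the sources used here give neither a version nor a scaling target. Columns were matched to samples by their labels, and 0 value columns were left over.

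Of 45101 probe sets, 34958 carried 1 symbol in the platform annotation, 932 several and 9211 were not listed. The latter 2 kinds stayed unnamed. Each gene was represented by its brightest probe set, by mean log2 intensity in that tissue. It entered a comparison if 1 of its 2 arrays lay above the tissue's median intensity, the floor, and lower values were raised to it. Log2 ratios were formed for 3 comparisons per tissue and counted past 2-fold, with no test, since 1 array per group leaves no residual degrees of freedom. The background was counted the same way over all genes.

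The cathepsins, 10 lists of 135 related genes (123 on the array) and 19 marker lists of 120 genes (112 on the array) were chosen with earlier results of these data known. Named genes were all cathepsins, up to 4 listed genes per list and comparison with the largest ratios past 2-fold, and the 3 nearest genes to each of the 3 cathepsins with the largest colitis ratio in colon. The mention of Ctsg, Ctsf, Ctso, Ctsw and of single markers was chosen after their values were seen. Motifs were searched in RefSeq promoters, 250 bases before to 50 after each start.

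The alternatives changed the floor (75th percentile, or none), the scaling (centring on array medians, centring on above-floor probe sets, or quantile normalization), the summary of a gene (mean of its probe sets, or no shared-type probe sets, whose names end in _a_at, _s_at or _x_at) and the threshold (3-fold). The procedure was tested on simulated data. Python 3.11.15, NumPy 2.4.6, pandas 2.3.3 and matplotlib 3.10.9 were used.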

Additional observations from a re-analysis of the deposited data

Results flagged for a closer look

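Ctsk differed in direction between the tissues. Its log2 ratio of DSS to CON was 1.15 in colon and -0.82 in liver, the latter a bound because the DSS liver value lay under the floor. For DSSPAR against CON it was 1.05 in colon and -0.46 in liver. Opposite signs, with each value beyond the robust SD between above-floor probe sets of a gene in its comparison, were the rule for flagging. Passing that SD is therefore no further support. The difference between tissues was not tested, with 1 array per group, and Ctsk rests on 1 probe set that was close to the floor in liver.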

How the results depend on the processing

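With 1 array per group no replicate could be left out, and no paired analysis was possible because each group holds a single array. With a 3-fold threshold 0 cathepsins were higher than CON in each of the 4 comparisons against CON, in place of 3 and 3 in colon and 1 and 1 in liver. Over all genes 1.76% (DSS) and 1.06% (DSSPAR) were at least 3-fold higher in colon, and 1.07% and 0.668% in liver. None among 10 genes is close to those shares. For DSSPAR against CON in colon, 1 gene, Ctsk, stayed past 2-fold after quantile normalization and 1, again Ctsk, with probe sets averaged, in place of 3. Over all genes 4.06% and 3.16% were then higher. For DSSPAR against DSS in colon, averaging gave 1 gene lower, Ctsa, through a dim probe set that read 3.74 in DSSPAR. Over all genes 1.59% were then lower. With no floor 1 gene was lower in the DSS liver, Ctsk, at -1.12, beside 15.1% of 18194 genes. With arrays centred on their medians 4 genes were higher in the DSSPAR liver than in CON, beside 7.94% of 12681 genes. Among counts of cathepsins under an alternative, 87 stayed within 1.5 times the reported one and 9 did not. Most of the 87 were 0 in both, and a fall from 3 to 2 counted as within. Such falls came in colon against CON: a 75th percentile floor dropped Ctsk, and leaving out shared-type probe sets dropped Ctsz. No cathepsin past 2-fold changed sign under any alternative run. Single cathepsin ratios were set against the SD between the 2 brightest probe sets of a gene, where both were above the floor. Of these ratios 385 moved by less and 11 by more. That SD was 0.34 to 0.40 in colon and 0.42 to 0.51 in liver. All 11 came from averaging probe sets, in Ctsa, Ctse, Ctsl and Ctsc, and 49 averaged ratios moved by less. The 385 are no measure of robustness, because many could not have passed the SD. Centring on array medians shifts above-floor ratios by a constant, and the log2 ratios of those medians were only -0.31 to -0.084. Changing the floor leaves ratios of bright readings as they were. Averaging cannot move Ctsd, Ctsk and Ctss, with 1 probe set each. A floor at the 75th percentile left Ctsk without a value in both tissues and Ctse in liver. Ctsd, Ctsl and Ctsz lost every or their brightest probe set without the shared type. Signal near the floor limits Ctsk and, in liver, Ctse.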
